A study of Mus musculus with 8 samples.

Results

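The mouse microRNAs (miRNAs) mmu-miR-451a, mmu-miR-144-3p, mmu-miR-144-5p, mmu-miR-486a-5p and mmu-miR-486a-3p come from hairpins whose main products are held at high level by mature red blood cells and their precursors. Not every arm among the 5 is such a main product. All 5 were looked up by name among the 1881 mouse miRNAs of the array, and all 5 had probes on it. MicroRNA was measured with one-colour Agilent arrays in whole kidneys of 4 male Akita samples (strain C57BL/6-Ins2Akita/J) and of 4 male control samples (C57BL/6J, called Mock in the sample titles). In Akita mice a dominant point mutation of Ins2, present in the whole animal, makes the insulin precursor misfold and causes diabetes. The age label was 36 for all 8 samples, with no unit, and the labels do not say if the controls were mock-treated. The labels do not say that the 8 samples came from separate mice, so p-values below describe the spread between these samples, which may be technical in part. The design text compares Akita kidneys with those of age-matched controls.

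In red-cell precursors, miR-144 and miR-451a are cut from one transcript that the erythroid transcription factor GATA1 switches on. MiR-144 is matured by Dicer and gives a 3p and a 5p arm. The hairpin of miR-451a is too short for Dicer and is sliced by Argonaute2, so that this miRNA has a single mature form. MiR-486 lies within Ank1, the gene of the red-cell membrane protein ankyrin, and is also made in striated muscle. Red cells keep these miRNAs after losing their nucleus, so a kidney sample holds them in whatever blood remains in its vessels. The ratio of miR-451a to miR-23a-3p is in common use as a haemolysis index in plasma.

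The mature sequences are shown because miR-451a and miR-144-3p, which moved together below, come from the same locus and share no seed. RefSeq sequences (GRCm38.p6) were at hand for 3 of the 5 members and are given 5′ to 3′ with the seed, bases 2 to 8, in capitals. All 3 lie on the plus strand, miR-144-5p at chr11:78073010-78073032, miR-144-3p at chr11:78073047-78073066 and miR-451a at chr11:78073186-78073207. The annotated hairpins of Mir144 and Mir451a are 99 bases apart.
miR-451a: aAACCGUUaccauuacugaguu
miR-144-3p: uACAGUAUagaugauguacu
miR-144-5p: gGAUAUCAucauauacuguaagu
The seeds of the 3 miRNAs all differ.

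Each miRNA had 2 probes, of which the longer extends the shorter by 1 base, in capitals here. The probes are shown because they set which forms a signal can come from. The array places them on chromosome 11 for miR-451a and on chromosome 8 for miR-486.
miR-451a, short probe: aactcagtaatggtaacggtt
miR-451a, long probe: aactcagtaatggtaacggttT
miR-486a-5p, short probe: ctcggggcagctc
miR-486a-5p, long probe: ctcggggcagctcA
miR-486a-3p, short probe: atcctgtactgagctg
miR-486b-3p, short probe: tcctgtactgagctg
The short miR-451a probe pairs with bases 2 to 22 of the miRNA and the long one with bases 1 to 22. The miR-486a-5p probes, of 13 and 14 bases, are listed by the array for the b copy too (miR-3107, an older name), so that these forms share one measurement. The short miR-486b-3p probe is contained in that of miR-486a-3p.

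Detection was judged per array: a miRNA was above background if at least 0.5 of the spots of 1 of its probes were flagged so. Between 274 and 298 miRNAs met this on the Akita arrays and between 295 and 327 on the control arrays. Of all 1881 miRNAs, 285 were above background on all 4 arrays of a group and were tested with limma, a linear model with a shared estimate of variance. MiR-451a was the 1 tested member among the 5. At a Benjamini-Hochberg adjusted p under 0.05, 42 of the 285 (14.7%) were called, 24 higher (8.42%) and 18 lower (6.32%) in Akita kidneys, and 0 of the 5 members were among them. The groups did not overlap for 65 of the 285 (22.8%), and miR-451a was not one of these. All arrays lay on 1 slide, Akita arrays in row 2 and control arrays in row 1, so row and group cannot be told apart. Of 7 tubule miRNAs, miR-215-5p was above background nowhere and 6 were tested, among which miR-204-5p was dim, at 6.28 ± 0.29 in Akita and 6.37 ± 0.14 in control kidneys. MiR-30a-5p averaged 13.47 ± 0.08 in Akita and 13.32 ± 0.06 in control kidneys, and miR-192-5p 12.06 ± 0.18 and 12.06 ± 0.12 (log2 scaled signal, mean ± SD, n = 4 each), and 0 of the 6 were called.

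MiR-451a was bright in every Akita kidney and ranged widely between control kidneys. The scaled signal of mmu-miR-451a, the sum of both probes after each array was set to a common 75th percentile, was 634, 605, 772 and 581 in Akita kidneys 1 to 4. In control kidneys 1 to 4 it was 86.7, 389, 1204 and 135. The Akita values lay close together and inside the control range: control kidney 3 was above all of them and the other control kidneys were below all of them. The highest value was 1.33 times the lowest among Akita kidneys and 13.9 times the lowest among control kidneys.

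**Figure D1:**
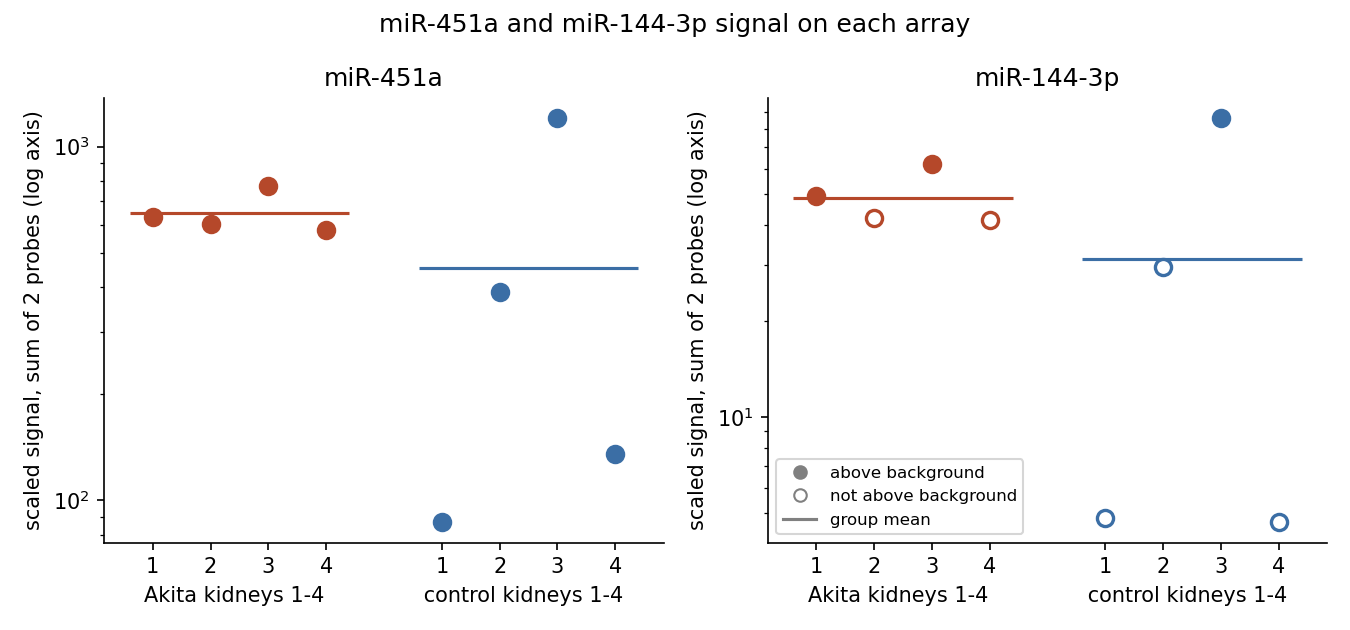
Scaled signal (log axis, sum of 2 probes) of miR-451a, left, and miR-144-3p, right, on each of the 4 Akita and 4 control arrays, with lines at the group means. Filled points were above background; miR-451a lay between 581 and 772 in Akita kidneys and between 86.7 and 1204 in control kidneys, and miR-144-3p had the same high and low arrays.

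On the log2 scale miR-451a averaged 9.33 ± 0.18 in Akita kidneys and 8.09 ± 1.69 in control kidneys (SD, n = 4 each). The difference, Akita minus control, was 1.24 ± 0.69 (SE), with a 95% interval of -0.32 to 2.80 and an adjusted p of 0.24 in limma, so a higher level in Akita kidneys was not called. An exact two-sided permutation test of the means over the 70 splits of the arrays gave p = 0.286, where 0.0286 is the smallest p it can give. Both probes gave the same difference, 1.24 and 1.24. More blood or red cells in a sample and more of the miRNA per cell cannot be told apart in whole kidney.

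The result turned on single control kidneys. Without control kidney 3 the difference was 1.92 with an adjusted p of 0.026, which passed the threshold. Without control kidney 1 it was 0.69 (adjusted p = 0.48), and with array weights, which let limma count variable arrays less, it was 0.56 (adjusted p = 0.62). Leaving out any one Akita kidney moved it little, to between 1.16 and 1.25.

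**Figure D2:**
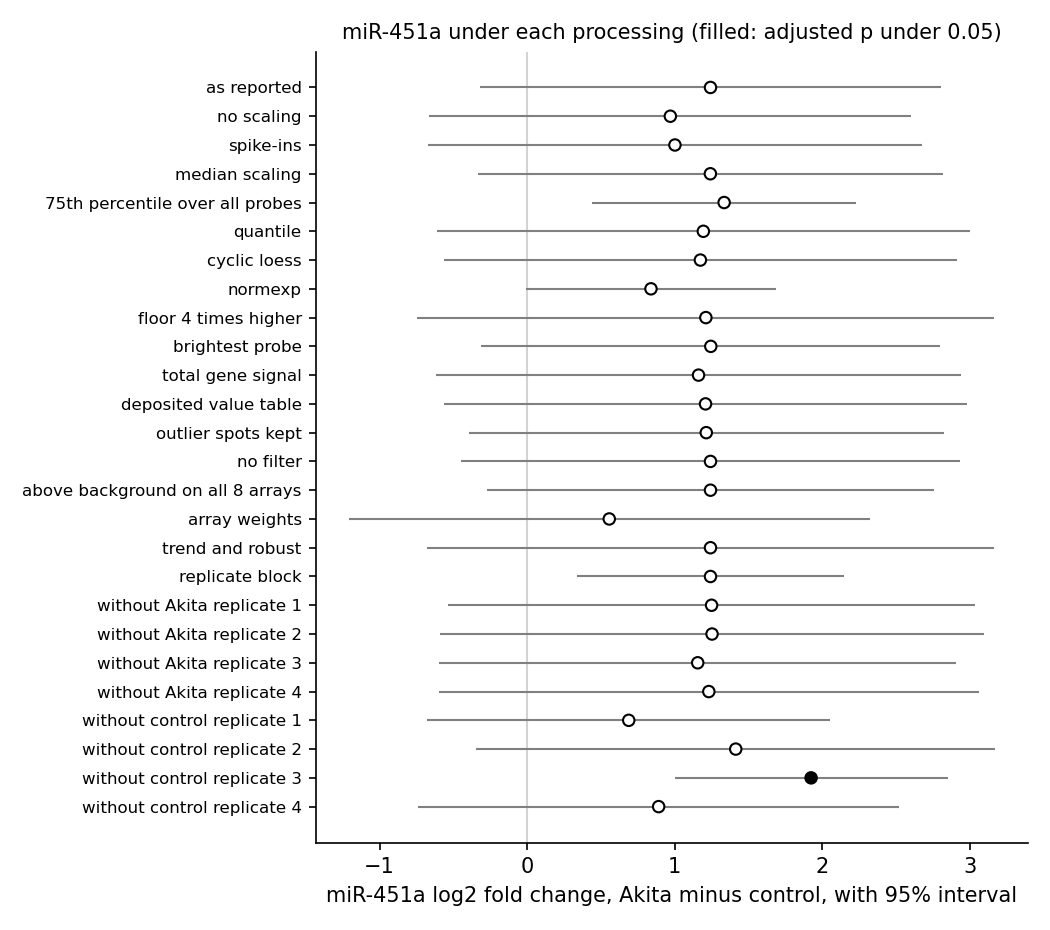
Log2 fold change of miR-451a, Akita minus control (x axis), with its 95% interval under the reported processing and each alternative fitted with limma (rows). Filled points have an adjusted p under 0.05, which was reached only without control replicate 3, at 1.92. All other points are open, and the differences shown are all above 0. The intervals are not adjusted for the number of miRNAs. Among open points they leave out 0 with the 75th percentile over all probes (0.44 to 2.23) and the replicate block (0.34 to 2.14).

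The spots of miR-451a agreed closely within each array. All 111 of its usable spots on Akita arrays and all 117 on control arrays were above background. Across the 12 to 15 replicate spots of a probe on one array, the SD was 0.03 to 0.17 on the log2 scale, and the coefficient of variation was 2.21% to 11.3%. This covers spot error only and leaves out variation of the sample, its RNA and its labelling. The ratio of the long to the short probe stayed between 1.26 and 1.39 on all 8 arrays. MiR-23a-3p, the partner of miR-451a in the haemolysis index, was level, at 11.84 ± 0.05 in Akita and 11.85 ± 0.03 in control kidneys (log2, SD, n = 4 each). The log2 ratio of miR-451a to miR-23a-3p was -2.51 ± 0.20 in Akita and -3.76 ± 1.70 in control kidneys, a difference of 1.25 (exact permutation p = 0.257).

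Among the 285 tested miRNAs, miR-451a had the widest SD between control kidneys, 1.69 on the log2 scale. Of those above background on all 4 control arrays, the next was miR-6904-5p at 0.59. MiR-205-5p, an epithelial miRNA, stood at 0.60, a value set by the floor for low signals, since on control arrays 1 and 4 it was not above background and was set to that floor. The median over all tested miRNAs was 0.11. Between Akita kidneys the SD of miR-451a, 0.18, ranked 81 of 285, against a median of 0.14. The widest there was miR-3473b at 1.03. Of all tested miRNAs, 89 had a wider SD in control than in Akita kidneys, so control kidneys were not the more variable group in general. The difference in SD of miR-451a, Akita minus control, was -1.51, with an exact two-sided permutation p of 0.0571, short of 0.05. The shuffled values were not centred on their group means, so a difference in mean can also move this p, and it does not test spread alone. This p went to the smallest possible, 0.0286, when the scaling percentile was taken over all probes (difference -1.62) and after normexp background correction (-1.07). Most of all probes are dim, since 1531 of the 1881 miRNAs were above background on no array. Without control kidney 3 the difference in SD was -0.96 (exact permutation p = 0.40).

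**Figure D3:**
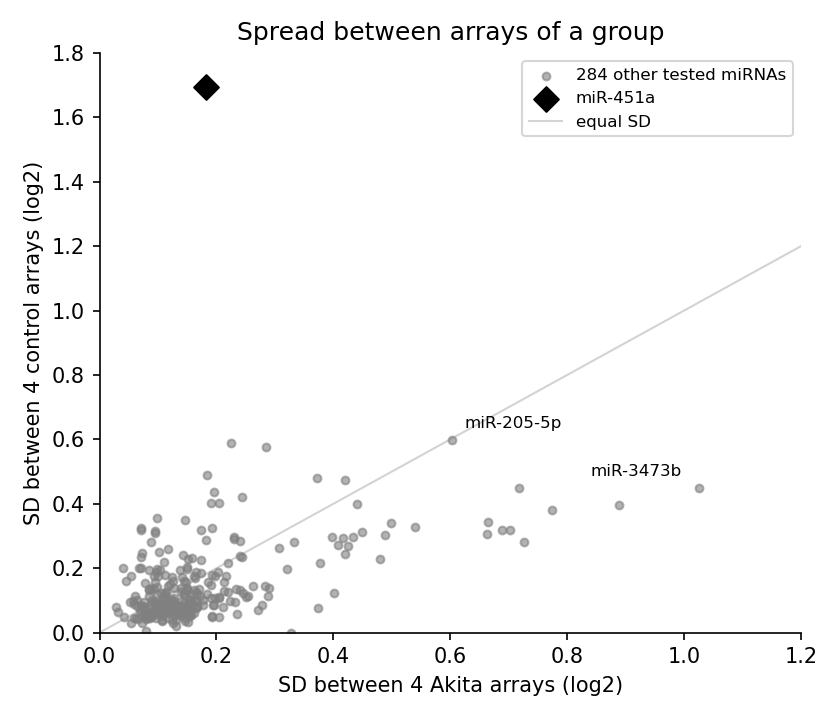
SD of log2 scaled signal between the 4 Akita arrays (x axis) and the 4 control arrays (y axis) for each of the 285 tested miRNAs, with the line of equal SD. MiR-451a, the diamond, lies at 0.18 and 1.69, apart from the 284 others, whose control SD is at most 0.60.

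MiR-144-3p, the 3p arm of the neighbouring hairpin, was dim but had the same high and low arrays. The scaled signal of mmu-miR-144-3p was 49.1, 41.9, 61.8 and 41.3 in Akita kidneys 1 to 4. It was 4.82, 29.5, 86.3 and 4.67 in control kidneys 1 to 4. Control kidney 3 was again the highest, and control kidneys 1 and 4 were lowest, with 0 spots above background. The array order was that of miR-451a except that control kidneys 1 and 4, both at background, changed places.

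MiR-144-3p was above background on Akita arrays 1 and 3 and on control array 3, so it stayed outside the tested set. In all, 74 of its 114 usable spots on Akita arrays and 29 of 115 on control arrays were above background. Feature Extraction's own call listed it as detected on 4 Akita and on 2 control arrays. The mean scaled signal was 48.5 ± 9.53 in Akita and 31.3 ± 38.4 in control kidneys (SD, n = 4 each), a difference of 17.2 with an exact two-sided permutation p of 0.457. The group SDs differed by -28.9, Akita minus control, with an exact permutation p of 0.0571. The values shuffled for it were not centred on group means, so it does not test spread alone. Fitted log2 differences depended on the floor, at which control arrays 1 and 4 stood. On Feature Extraction's total signal, where 367 miRNAs were tested, the difference was 1.43 ± 0.87 (SE) with an adjusted p of 0.31 in limma. On the scaled signal with no detection filter, over 428 miRNAs, it was 0.47 ± 0.40 (SE, adjusted p = 0.46). Neither is a measure of the fold.

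Over the 8 arrays the scaled signal of miR-144-3p correlated with that of miR-451a at Pearson's r = 0.994 (exact permutation p = 4.96e-05) and Spearman's rho = 0.976 (exact permutation p = 0.000397). Taken as deviations from each group's mean, r was 0.994. Without control kidneys 1 and 3, the farthest from the median of miR-451a, r was 0.992. Of the 1880 other miRNAs on the array, miR-144-3p had the highest r with miR-451a. Adjusted over all 1880, its p for r was 0.093 and that for rho was 0.37, and 0 miRNAs passed 0.05. At 8 arrays the smallest p for r is 2.48e-05. For rho the smallest p is larger, because a fully reversed order counts as equally extreme. A single perfect rank match could therefore not have passed 0.05 over all 1880, and the count for rho decides nothing. The arrays share their scaling, and dim miRNAs share the background of their array.

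**Figure D4:**
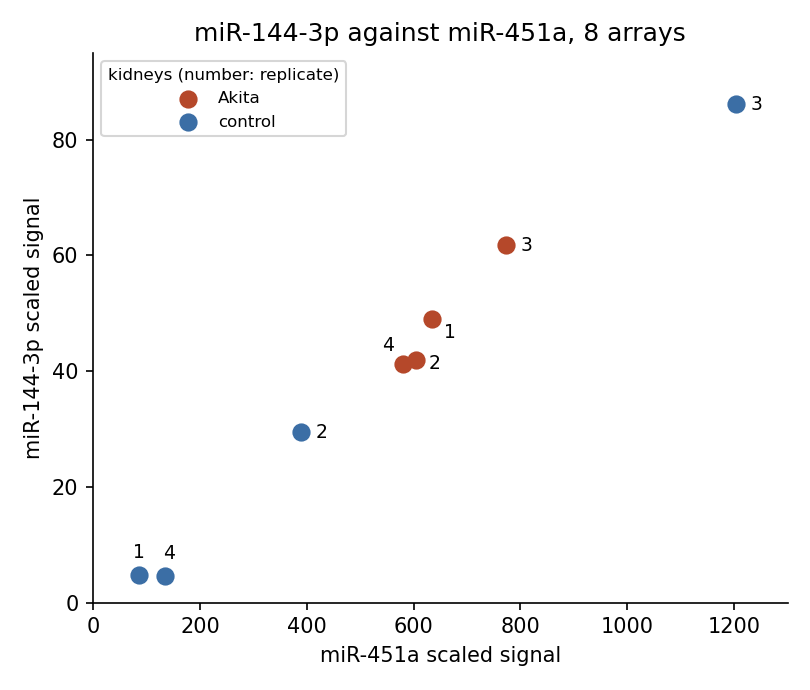
Scaled signal of miR-144-3p (y axis) against that of miR-451a (x axis) on the 4 Akita and 4 control arrays, numbered by replicate. The points run from control kidneys 1 and 4 at the lower left, through the Akita kidneys, to control kidney 3 at the upper right (r = 0.994, n = 8).

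The next miRNAs in that order, miR-449a-5p (r = 0.921), miR-106a-3p (0.920) and miR-7233-3p (0.865), were above background on no array, so that their values are those of spots at background. When the median negative control probe of each array was subtracted, a step added after the values were seen, miR-144-3p kept r = 0.989 and the next was miR-3102-5p at 0.673.

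The other tested miRNAs were compared with miR-451a on the log2 scale. The highest r over the 8 arrays were those of miR-193a-5p (0.75), miR-205-5p (0.69), miR-365-3p (0.67), miR-7671-3p (0.66) and miR-455-3p (0.66). Of these, miR-205-5p was at the floor on control arrays 1 and 4, where miR-451a was lowest, so its r rests on floored values. Without control kidneys 1 and 4, the farthest from the median of miR-451a on this scale, these r values lay between -0.31 and -0.02, so the relations rest on those kidneys. The lowest were those of miR-5107-5p (-0.93), miR-709 (-0.93), miR-7216-5p (-0.81), miR-7011-5p (-0.80) and miR-6973b-5p (-0.80). Without the same kidneys, r was -0.43 for miR-5107-5p, -0.88 for miR-709, 0.43 for miR-7216-5p, -0.59 for miR-7011-5p and 0.05 for miR-6973b-5p. The adjusted p of miR-709, 0.12 by exact permutation over all 284, was the lowest of any. By r or by rho, 0 of the 284 passed an adjusted p of 0.05.

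MiR-144-5p, the other arm of the same hairpin, was not above background on any spot, 0 of 120 on Akita and 0 of 119 on control arrays. The mean spot signal of mmu-miR-144-5p before scaling was -0.10, -0.14, -0.05 and 0.91 in Akita kidneys 1 to 4 and -0.27, -0.65, 2.42 and -2.27 in control kidneys 1 to 4. Values below 0 arise because the scanner software subtracts the background. The highest of the 7 negative control probes had means of 0.61 to 3.91 on the Akita arrays and of 1.30 to 2.90 on the control arrays, and miR-144-5p was above it on 0 of 8 arrays. Control kidney 3, highest for miR-451a and miR-144-3p, was also the highest here, at the level of negative controls. Its r with miR-451a was 0.804 on the scaled signal and 0.604 after subtraction of the negative controls.

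MiR-486a-5p, the main arm of miR-486, was not above background either, with 0 of 120 spots on Akita and 0 of 118 on control arrays. The mean spot signal of mmu-miR-486a-5p before scaling was 5.08, 4.14, 4.85 and 2.21 in Akita kidneys 1 to 4 and 2.94, 4.51, 6.04 and 1.44 in control kidneys 1 to 4. The groups overlapped throughout, and control kidney 3 again gave the highest value. On 6 of the 8 arrays, all but Akita 4 and control 4, this lay above the highest negative control probe. Of the 1531 miRNAs above background on no array, 14.2% did so on at least as many. The r with miR-451a was 0.800 on the scaled signal, 0.823 without control kidneys 1 and 3, and 0.509 after subtraction of the negative controls. A level of miR-486a-5p was not detectable above the background rule on these arrays.

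MiR-486a-3p had 0 of 115 spots above background on Akita and 0 of 117 on control arrays. The mean spot signal of mmu-miR-486a-3p was -2.46 to -0.94 in Akita and -2.39 to -0.57 in control kidneys, below the lowest negative control probe of its array on all 8 arrays. Its r with miR-451a was -0.02. The related forms on the array were alike: miR-451b, which RefSeq places on the strand opposite miR-451a at the same locus, and miR-486b-3p had 0 spots above background on any of the 8 arrays.

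The authors' deposited table holds a ratio per miRNA and array. What it was taken to is not stated, but can be read from the values below. In the authors' deposited table, miR-451a stands at 1.06, 1.06, 1.37 and 0.946 in Akita kidneys 1 to 4 and at 0.148, 0.676, 2.15 and 0.236 in control kidneys 1 to 4. MiR-144-3p stands there at 1.17, 1.04, 1.57 and 0.959 in Akita kidneys and at 0.0107, 0.731, 2.20 and 0.00787 in control kidneys. Control kidney 3 is thus the highest for both in the authors' deposited table, and control kidneys 1 and 4 are the lowest. On the log2 scale the middle values of miR-451a over all arrays were -0.079 and 0.079, of the same size and opposite sign. The middle ratios of miR-144-3p, 0.959 and 1.04, also lay on either side of 1. Each ratio was thus relative to the miRNA's own median over the arrays. Similar ratios of miR-451a and miR-144-3p therefore do not mean similar levels. The values for miR-144-5p, miR-486a-5p and miR-486a-3p in the authors' deposited table equal those of its blank entry, as do 1448 entries in all, and hold no measurement.

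Other miRNAs that red cells hold at high level did not share this spread. Of 16 listed, such as the cell-cycle regulator miR-16-5p and members of the miR-17 and miR-25 families, 12 were tested, and most are also made by many other cell types. In limma, 0 of the 12 rose and 1 fell in Akita kidneys, which is near the 8.42% higher and 6.32% lower among all tested miRNAs. Their median log2 difference was 0.03, against 0.06 over all tested miRNAs. The one that fell was miR-92a-3p, by 0.36 (adjusted p = 0.0067). Between the 4 control kidneys the 12 ranged over 0.01 to 0.29 on the log2 scale, with a median of 0.16, where miR-451a ranged over 3.79. MiR-16-5p was 11.13, 10.83, 11.08 and 11.19 in Akita kidneys 1 to 4 and 11.14, 11.25, 11.26 and 11.21 in control kidneys 1 to 4. MiR-22-3p, the brightest of the list, was 12.52, 12.25, 12.42 and 12.43 in Akita and 12.12, 12.41, 12.23 and 12.33 in control kidneys. For both, the 4 control values lay within 0.29 of each other. Their r with miR-451a over the 8 arrays ran from -0.48 to 0.60, and 8 of the 12 were above 0, against 168 of all 284. Its median was 0.29, against 0.11 over all 284. Taken as deviations from each group's mean, r was below 0 only for miR-484 (-0.05) and highest for miR-15b-5p (0.48).

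**Figure D5:**
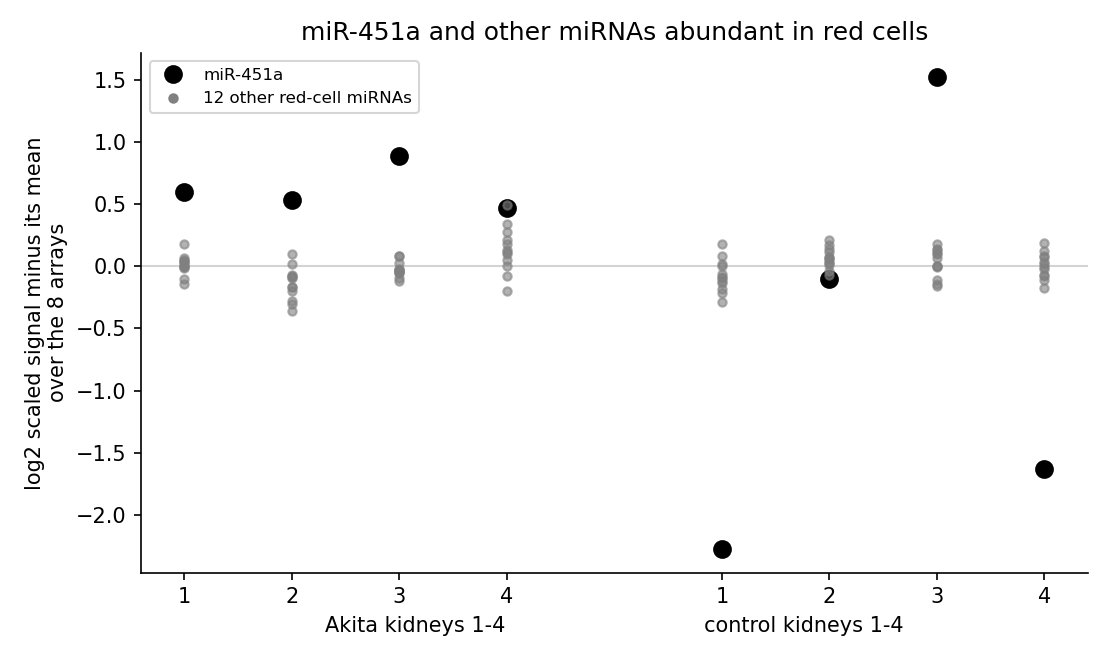
Log2 scaled signal of miR-451a (large points) and of the 12 other tested red-cell miRNAs (small points) on each of the 4 Akita and 4 control arrays, each as its difference from its own mean over the 8 arrays. MiR-451a ranges over 3.79 between control kidneys, and the 12 others over at most 0.29 there.

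Markers of other blood and tissue cells were read beside miR-451a. Of 10 leukocyte miRNAs, 3 were above background nowhere and 7 were tested, of which 0 rose and 6 fell in Akita kidneys, where 8.42% of all tested miRNAs were called higher and 6.32% lower. The mean log2 signal of the 7 was 6.56 to 6.77 in Akita and 7.19 to 7.39 in control kidneys, without overlap. Single tested miRNAs did not overlap in 22.8% of cases, a share that is no background for a mean over 7. MiR-142a-3p, one of these 7, was 8.65 ± 0.14 in Akita and 9.24 ± 0.12 in control kidneys (SD, n = 4 each), lower by limma (adjusted p = 0.0051). Within the control kidneys, over which miR-451a ranged by 3.79, the leukocyte mean stayed between 7.19 and 7.39. Both endothelial miRNAs, of which miR-126a-3p averaged 12.38 ± 0.15 in Akita and 12.24 ± 0.06 in control kidneys, were tested and neither was called. For striated muscle, miR-1a-3p was above background on 3 Akita and 3 control arrays, and the 6 other listed miRNAs nowhere. For liver, miR-122-5p was above background on 2 Akita and 3 control arrays and miR-122-3p nowhere. The part of any of these cells in the levels of miR-451a was not tested.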

How the data were processed

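Spot intensities were extracted by the authors with Agilent Feature Extraction 12.0.3.1, per the file headers, with background subtracted and no normalization between arrays. The deposited value table holds ratios per miRNA, with construction not given in the sources used. It was used as an alternative. Its columns have medians of 1.03 to 1.22 in Akita and 0.70 to 0.97 in control samples. Each median equals the blank entry of its column, which 1448 entries share, so it is no level of measured miRNAs. Flags for outliers and background were used as deposited.

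Control spots and outlier spots (2.03% to 3.02% per array) were left out, and no spot was saturated. Spots were averaged per probe (4415 probes), and each array was scaled by its 75th percentile over the 451 probes above background on all 8 arrays. Both probes of each member, at most 4 of any miRNA, were summed, sums below 23.65 were set to that floor (4.56 in log2), and log2 was taken. Correlations of miR-144 and miR-486 used the scaled signal without a floor. Groups came from the sample titles, and limma 3.58.1 (R 4.3.3) was used to compare them (two-sided, Benjamini-Hochberg over 285 miRNAs, 9.16 total degrees of freedom). The fit was also run on simulated data with the same SD in both groups. That does not cover unequal SDs such as those of miR-451a, 0.18 in Akita and 1.69 in control kidneys. The number of arrays limits the precision.

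The members, the lists and the named miRNAs were chosen with earlier results of these data known. Named were all members and their copies, the 5 highest and 5 lowest correlations with miR-451a, the widest spreads per group, up to 8 red-cell and 4 other list members; of these, those that carry a comparison are printed. MiR-449a-5p, miR-106a-3p, miR-7233-3p and miR-3102-5p were added with their values known. Replicate numbers did not pair the samples. Alternatives were other scalings, background corrections, floors, filters, summaries and fits, and leaving out each array.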

Additional observations from a re-analysis of the deposited data

Results flagged for a closer look

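In the Akita group, the mean spot signal of miR-144-5p before scaling was 0.914 in kidney 4, far from -0.10, -0.14 and -0.05 in kidneys 1 to 3, which lie close together. None of its spots was above background, and the value lies below the highest negative control probe of that array, 3.91. In all, 20 groups of 4 arrays were checked in this way and 1 stood out, where chance gives about 1 in 20.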

How the results depend on the processing

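The difference of miR-451a between Akita and control kidneys stayed above 0 under all 27 alternatives, from 0.56 to 1.92, and under 26 of them it stayed short of the threshold. Leaving out each array in turn gave 0.69 to 1.92, and the called value, 1.92 without control replicate 3, raised the members called to 1 (0 to 1 over these fits, 0 under all other alternatives). The difference in SD of miR-451a ran from -1.87 to -0.96 when each array was left out in turn. Its exact permutation p, which a difference in mean can also move, was under 0.05 without control replicate 1, 2 or 4. The same held with the percentile over all probes (-1.62) and with normexp (-1.07). The r of miR-144-3p with miR-451a stayed between 0.989 and 0.996 under 9 alternatives chosen after seeing the data, and 0 miRNAs passed an adjusted p for likeness to miR-451a under 2 others chosen likewise. The count of called miRNAs, 42 (24 higher and 18 lower in Akita), was 18 to 37 when each array was left out in turn. It was 109 (5 higher, 104 lower) without scaling, 114 (7 higher, 107 lower) on spike-ins, 14 (10 higher, 4 lower) with the percentile over all probes, 70 (29 higher, 41 lower) with cyclic loess, 89 (81 higher, 8 lower) with normexp, 9 with a floor 4 times higher and 76 with array weights. These scalings moved the median of all tested miRNAs to -0.21 without scaling, -0.18 on spike-ins, 0.16 with the percentile over all probes and 0.13 with normexp, against 0.06. The causes were not tested. Same-numbered samples did not deviate together (1 of 8 arrays correlated best with its own number). The replicate block gave the same 1.24 for miR-451a, with an adjusted p of 0.093, and 25 calls. Without the filter, rows at the floor on all arrays were dropped. Signal over background limits miR-144-3p, miR-144-5p and both miR-486a arms.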
